A study of Mus musculus with 9 samples.

Results

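Matrix glycoproteins and proteoglycans are the non-collagen part of the extracellular matrix, and 51 of their genes were followed here in mouse fibroblasts that carry v-Src or STAT3-C. They were chosen by name, with earlier results of these data known. Every probeset whose only gene symbol in the array annotation was a listed gene was taken as theirs. Of the 51 genes, 48 had such a probeset, with 106 probesets in all, out of 18193 genes and 45037 probesets on the array. Spp1, Efemp2 and Fbn1 had none under this rule and were not analysed here. That does not mean the array lacks probesets for them. The authors list an Fbn1 probeset among those most repressed in both transfected lines.

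RNA came from Balb/c-3T3 cells, an immortal line of mouse embryo fibroblasts, and the values are from Affymetrix mouse whole-genome expression arrays. Unmodified Balb/c-3T3 cells with no transfected gene served as control. The other lines had been stably transfected with pMvSrc, which carries the viral tyrosine kinase v-Src, or with pRc/CMV-STAT3C, which carries, behind a cytomegalovirus promoter, STAT3-C, a mutant of the transcription factor STAT3 that is active without a signal. All cells grew in DMEM with 10% bovine calf serum. Each line has 3 arrays, numbered 1, 2 and 3 for control and STAT3-C and 1, 5 and 6 for v-Src. According to the methods, each array holds the pooled RNA of 5 dishes at a successive passage of 1 stable line. An SD given below is thus the spread between passages. An SE comes from the limma fit, which draws the variance of each probeset toward that of all probesets, and it too rests on passages alone. How far a difference belongs to the transfected gene and how far to the individual line cannot be told apart.

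The members build, bind or decorate the matrix in different ways. Matricellular proteins such as thrombospondins, tenascins and periostin are secreted around cells and modulate their adhesion without being main structural parts of a fibre. Small leucine-rich proteoglycans bind collagen fibrils and set their thickness and spacing, whereas versican holds hyaluronan, a very long sugar chain that synthases at the plasma membrane make and CD44 binds. Fibulins and microfibril proteins take part in elastic fibres, nidogens, perlecan and agrin belong to basement membranes, and syndecans and glypicans carry heparan sulfate on the cell surface, where it binds growth factors. Fibroblasts are the main makers of most of these proteins, and fibroblasts transformed by Src have long been known to hold less fibronectin at their surface.

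Levels are log2 values after Robust Multichip Average (RMA), so a difference of 1 is a doubling. The array medians lay between 6.27 and 6.39, and the highest values between 14.13 and 14.44. A level under the 25th percentile of its array, which was 5.07 to 5.16, is called near background. Levels of different probesets are not compared, because probes differ in brightness. Each gene is represented by the probeset that was brightest on average over the 9 arrays. It is called higher or lower when limma gave a Benjamini-Hochberg adjusted p under 0.05 over all probesets together with a fold of at least 1.5. An exact permutation test of 3 arrays against 3 cannot give a p under 0.1, so calls rest on the limma fit across all probesets. Arrays of the same line correlated at 0.990 to 0.995 (Pearson, over probesets), and no array stood apart.

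Stat3 itself had a level of 9.17 in control, 10.70 in v-Src and 9.40 in STAT3-C cells, and Src showed no called difference. The probesets were not shown to detect the transfected sequences, so these values do not check the labels. Of 10 fibroblast markers, Vim and Col1a2 had means of 12.72 to 13.43 in every line, and Fap was near background in all. In each transfected line 5 were lower, or 50%, against 10.4% and 10.3% of all genes. They were not the same 5, though Thy1 was in both. The Thy1 means were 10.86, 5.68 and 5.67 in control, v-Src and STAT3-C cells. Col1a2, though bright, was called lower in STAT3-C cells (-0.61), a call lost at a fold of 2. In v-Src cells it passed as the mean of its probesets (-0.93) but not at its representative probeset. S100a4 alone was higher in each transfected line (0.65 and 0.89), or 10% of the markers, near the 9.54% and 11.9% of all genes. Its v-Src call was lost without control array 1 (0.68) or 2 (0.48) or v-Src array 1 (0.65) or 6 (0.64). The summed linear level of the 10 ran from 51650 to 56480 in control, 35870 to 44240 in v-Src and 40590 to 40880 in STAT3-C cells. Among 5 smooth muscle and myofibroblast markers, 3 were lower and Des was higher (0.94 and 1.05) in each line. These are 60% and 20% of them, beside the same all-gene shares. The summed level of the 5 went from 6505 to 9868 in control to 537.9 to 566.8 in v-Src and 557.5 to 585.1 in STAT3-C cells. The Acta2 fall in that sum (-5.08 and -5.21) was lost without probesets ending in _s_at or _x_at (-0.22 and -0.02). Of the 8 macrophage and leukocyte markers, 2 rose in v-Src and 3 in STAT3-C cells, or 25% and 37.5%, against 9.54% and 11.9% of all genes. Ptprc and Itgam, however, were near background on every array. The summed level of these 8 was 869.9 to 916.0 in control, 1776 to 2177 in v-Src and 1903 to 2606 in STAT3-C cells. Of the 5 mesothelial markers only Msln moved, and of the 3 adipocyte markers measured Fabp4 rose and Pparg fell in both lines. The epithelial marker Cdh1, the endothelial markers Pecam1 and Tek and the bone marker Ibsp were near background on every array. Most of the other epithelial and bone markers were not. In each line 1 of 8 epithelial and 1 of 7 chondrocyte and osteoblast markers was near background on all its arrays. Of 6 endothelial markers it was 3 in control, 2 in v-Src and 3 in STAT3-C cells. No marker of these lists was called against control. The part of these shifts in the results below was not tested, and in pooled RNA fewer cells of a kind and less RNA per cell cannot be told apart.

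In v-Src cells 8 of the 48 members were higher than in control, where 9.54% of all genes were, and 15 were lower, where 10.4% of all genes were. These are 16.7% and 31.2% of the members. In STAT3-C cells 9 members were higher (11.9% of all genes) and 19 were lower (10.3% of all genes), or 18.8% and 39.6% of the members. The median log2 difference of the members was -0.27 in v-Src and -0.20 in STAT3-C cells, while that of all genes was 0.02 and 0.04. Both comparisons use the same control arrays, so they are set side by side and not counted as independent. Because the members were chosen with earlier results of these data known, their shares beside those of all genes are description, not a test. In the direct comparison, v-Src cells exceeded STAT3-C cells at 9 members, against 4.84% of all genes, and lay below them at 5, against 6.83%. The median member differed there by 0.07, and the median gene by -0.03. Altogether 33 members passed in at least 1 of the 3 comparisons. The matching share of all genes was not worked out, so this count has nothing to be set against. At their representative probesets 15 members passed in none, though other probesets of some, such as Fbln1, did pass. The 15 were Thbs3, Fmod, Prelp, Fbln1, Eln, Fbn2, Mfap2, Mfap4, Comp, Tnxb, Vtn, Hspg2, Sdc2, Gpc3 and Has1. The plot of log2 fold changes by role shows these changes, and 5 of the 8 gains in v-Src cells are surface heparan sulfate proteoglycans.

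**Figure D1:**
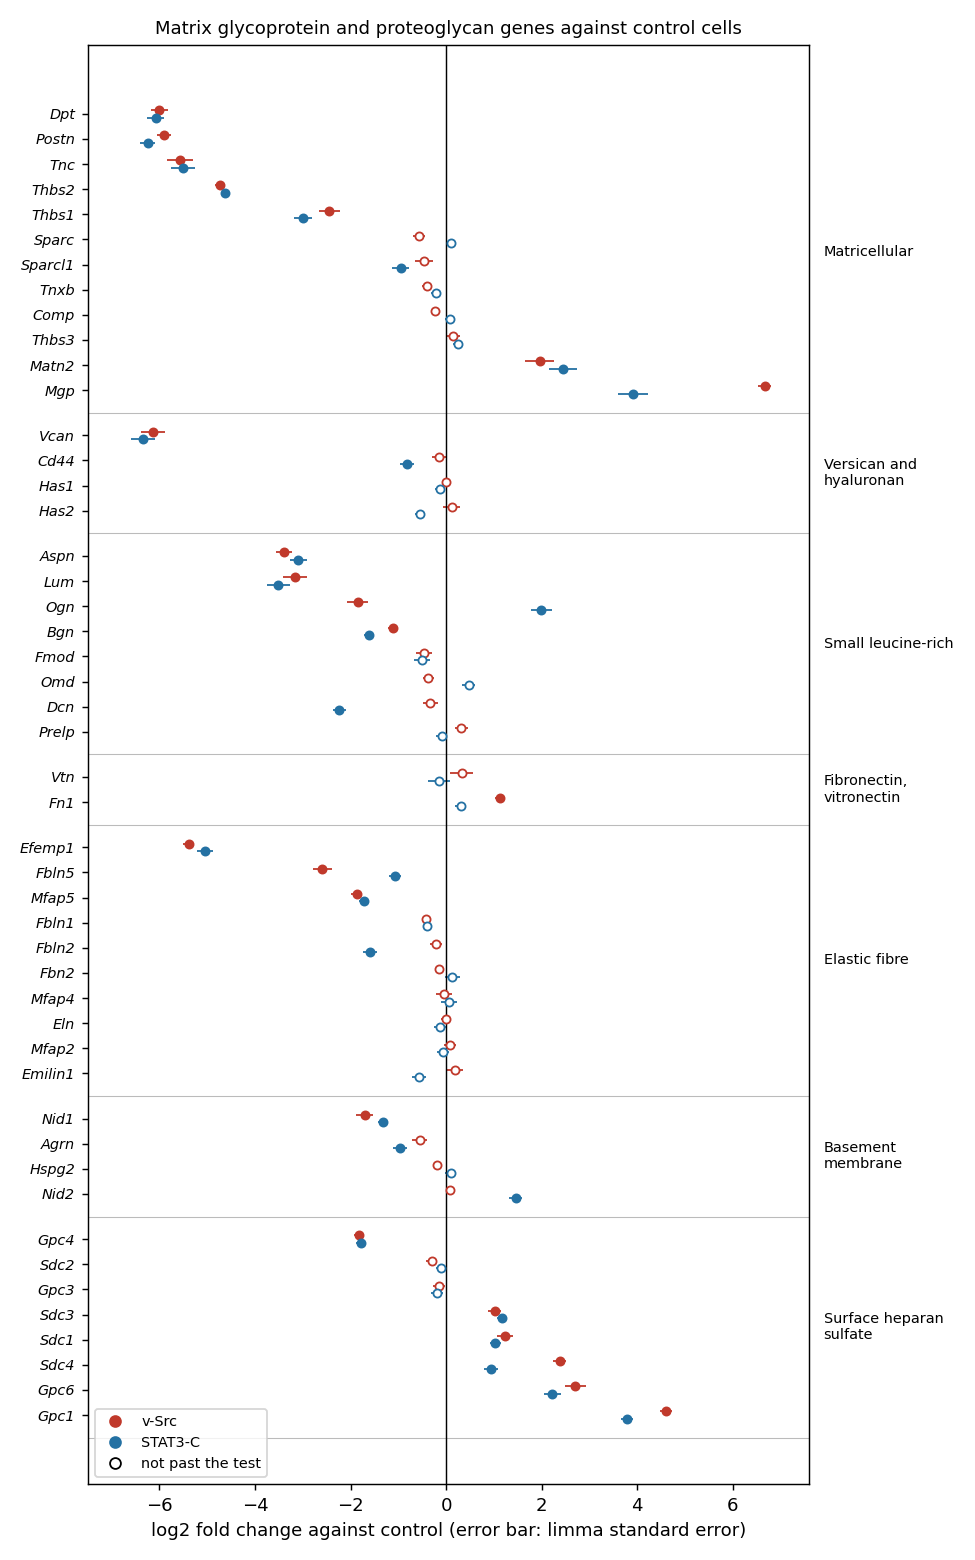
Log2 fold change against control of the 48 measured members, ordered by role and then by v-Src value; red is v-Src, blue is STAT3-C, bars are the limma standard error (3 arrays a line), and open circles did not pass. Dpt, Postn, Tnc, Vcan and Efemp1 lie below -5 in both lines, while Mgp reaches 6.67 in v-Src cells and Gpc1 4.60, and Ogn has a filled point on either side of 0.

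Postn, Tnc, Dpt and thrombospondin genes fell among the matricellular members, while Mgp and Matn2 rose. Of the 12 measured, 5 fell and 2 rose in v-Src cells, and 6 fell and 2 rose in STAT3-C cells, with median differences of -0.52 and -0.58. The falls are 41.7% and 50% of them, against 10.4% and 10.3% of all genes. The rises are 16.7% in each line, against 9.54% and 11.9%. Postn, periostin, a collagen-binding protein of periosteum and healing tissue, stood at 11.99, 12.35 and 12.55 in control, at 6.26, 6.38 and 6.54 in v-Src and at 6.08, 6.17 and 5.91 in STAT3-C cells. The control arrays lay far above all others. Its log2 fold change was -5.90 (SE 0.15, adjusted p = 1.71e-06) in v-Src and -6.25 (SE 0.15, adjusted p = 1.82e-07) in STAT3-C cells, 59.8-fold and 75.9-fold lower.

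Tnc, tenascin-C, a glycoprotein of healing wounds and tumor stroma, was at 9.84, 10.52 and 10.97 in control, 5.11, 4.84 and 4.66 in v-Src and 4.82, 4.99 and 5.03 in STAT3-C cells. All 6 arrays of the transfected lines were near background. The difference was -5.58 (SE 0.27, adjusted p = 2.23e-05) and -5.50 (SE 0.25, adjusted p = 4.53e-06). Thbs2, thrombospondin-2, which limits vessel growth, stood at 10.92, 11.14 and 10.84 in control, 6.30, 6.22 and 6.19 in v-Src and 6.35, 6.31 and 6.39 in STAT3-C cells. It fell by 4.73 (SE 0.10, adjusted p = 6.12e-07) and 4.62 (SE 0.10, adjusted p = 1.5e-07), with no overlap with control. Its other probesets also fell, by 2.55 and 5.82 in v-Src cells.

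Thbs1, thrombospondin-1, which activates latent TGF-beta, went the same way but kept a clear signal. It had a mean level of 12.64 ± 0.31 (SD, n = 3) in control, 10.20 ± 0.39 in v-Src and 9.64 ± 0.29 in STAT3-C cells, log2 differences of -2.44 and -3.00. Its direct difference of 0.56 (adjusted p = 0.116) did not pass, and passed only without v-Src array 5 (0.78, adjusted p = 0.0291). Thbs3 differed from control by 0.15 and 0.24 and did not pass.

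Dpt, dermatopontin, a small protein that binds decorin and collagen fibrils, showed the pattern of periostin. Its levels were 11.68, 12.44 and 12.17 in control, 6.07, 6.22 and 6.0 in v-Src and 5.85, 6.14 and 6.06 in STAT3-C cells. Its log2 difference was -6.00 (SE 0.19, adjusted p = 3.52e-06) and -6.08 (SE 0.19, adjusted p = 5.92e-07), and the arrays of the transfected lines overlapped each other. Of the 48 measured members 31 have a promoter in the RefSeq table for GRCm38.p6, each covering 250 bases before and 50 after a start. The STAT motif TTCNNNGAA, which reads the same on both strands, was found in 2 of the 31, or 6.45%, against 9.55% of all 27025 genes in the table. The matches were in Dpt and Vtn, of which only Dpt had a called change. Its upstream 250 bases, chr1:164796413-164796662 on the plus strand, are shown for that reason with the motif in capitals, its first base at -128 from the start.
Dpt: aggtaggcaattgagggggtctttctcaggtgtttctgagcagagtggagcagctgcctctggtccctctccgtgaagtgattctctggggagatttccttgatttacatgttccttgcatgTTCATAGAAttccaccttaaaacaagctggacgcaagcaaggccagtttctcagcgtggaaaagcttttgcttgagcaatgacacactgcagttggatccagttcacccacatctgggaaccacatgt
A match is a description of the letters and not a measured binding site.

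Mgp, which encodes matrix Gla protein and keeps soft tissue from calcifying, rose most of all members. It was at 6.56, 6.31 and 6.65 in control, 13.31, 12.94 and 13.28 in v-Src and 10.86, 10.81 and 9.57 in STAT3-C cells. The 3 lines did not overlap, and STAT3-C array 3 lay more than 1 unit below the other two. The log2 fold change was 6.67 (SE 0.13, adjusted p = 6.12e-07), or 102-fold, in v-Src and 3.91 (SE 0.32, adjusted p = 7.28e-05) in STAT3-C cells. v-Src exceeded STAT3-C cells by 2.76 (SE 0.33, adjusted p = 0.00191). Mgp had the highest spread of the members in STAT3-C cells, an SD of 0.73, where the median member had 0.16.

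Matn2, matrilin-2, an adaptor protein of filamentous networks, also rose. Its levels were 7.08, 7.39 and 7.58 in control, 9.54, 8.58 and 9.80 in v-Src and 10.05, 10.28 and 9.07 in STAT3-C cells. Its gains of 1.96 (SE 0.31, adjusted p = 0.00315) and 2.45 (SE 0.29, adjusted p = 0.000497) had wide errors, and the transfected lines overlapped.

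Sparc, a calcium-binding glycoprotein that attaches to collagen, was bright everywhere. It stood at 12.53, 12.77 and 12.63 in control, 12.09, 11.84 and 12.30 in v-Src and 12.67, 12.78 and 12.77 in STAT3-C cells. All v-Src arrays lay below the rest. The direct difference of -0.66 (SE 0.12, adjusted p = 0.00904) passed and shrank to -0.55, under the fold, without v-Src array 5. Against control the v-Src value of -0.57 fell just short of the fold, and passed without control array 1 (-0.62) or v-Src array 6 (-0.68), while the other bright probeset gave -1.14 and passed. Its relative Sparcl1 was lower in STAT3-C cells alone (-0.95, adjusted p = 0.00482). In v-Src cells it differed from control by -0.46 (adjusted p = 0.123), or -0.68 with a call without control array 3, and its direct difference of 0.48 was under the fold. Comp (-0.24 and 0.08) and Tnxb (-0.41 and -0.21) did not pass.

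Of versican, 2 hyaluronan synthases and Cd44, only Vcan fell in v-Src cells, and Vcan and Cd44 fell in STAT3-C cells. Vcan, the large chondroitin sulfate proteoglycan that holds hyaluronan, was at 10.71, 9.69 and 10.67 in control and near background afterwards, at 4.24, 4.26 and 4.16 in v-Src and 4.01, 3.97 and 4.07 in STAT3-C cells. Its log2 difference of -6.14 (SE 0.26, adjusted p = 1.15e-05) and -6.34 (SE 0.25, adjusted p = 2.22e-06) is 70.4-fold and 81.2-fold. Control array 2 lay about 1 unit below the other controls, which gave Vcan the highest control spread of the members, an SD of 0.58. Versican has 8 probesets, and 3 of them fell, by 2.56 to 6.34 over the 2 lines. The other 5 were near background in control already.

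Cd44, the main hyaluronan receptor, was at 10.62, 10.49 and 11.0 in control, 10.36, 10.59 and 10.74 in v-Src and 9.76, 9.82 and 10.07 in STAT3-C cells. It was lower in STAT3-C cells by 0.82 against control (adjusted p = 0.00435), and v-Src exceeded STAT3-C cells by 0.68 (adjusted p = 0.0103), but its other probesets did not pass. Has2, the synthase of long hyaluronan chains, was near background on all STAT3-C arrays (4.47, 4.79 and 4.71). Its direct difference of 0.67 (SE 0.19, adjusted p = 0.0422) no longer passed when v-Src array 1 (0.72, adjusted p = 0.0917), v-Src array 5 (0.46, 0.0576), or STAT3-C array 1 (0.57, 0.148), 2 (0.73, 0.0746) or 3 (0.69, 0.0859) was left out. Its value of -0.55 in STAT3-C cells against control was under the fold and passed without control array 2 (-0.60) or STAT3-C array 2 (-0.61). Has1 stayed within 0.12 of control in both lines and did not pass.

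Of 14 measured genes of hyaluronan turnover and binding, 2 rose in each transfected line, or 14.3%, against 9.54% and 11.9% of all genes. In v-Src cells 1 fell, or 7.14%, and in STAT3-C cells none did, under the 10.4% and 10.3% of all genes. The medians were 0.20 and 0.22. The count that rose in STAT3-C cells was 1 without control array 1 or STAT3-C array 1 or 2, with either other scaling and at an adjusted p under 0.01, and 0 at a fold of 2. The count that rose in v-Src cells was 1 at a fold of 2. Cemip, which binds hyaluronan for breakdown, differed from control by -1.90 in v-Src and by 0.78 in STAT3-C cells (adjusted p = 0.001 and 0.0513). Its direct difference, v-Src minus STAT3-C, was -2.68. The STAT3-C value passed without control array 2 (0.92) or STAT3-C array 3 (0.96). Gusb, the lysosomal beta-glucuronidase, rose by 1.14 and 0.76, and the link protein gene Hapln4 rose in v-Src cells by 0.83.

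Of the 8 small leucine-rich proteoglycans, 4 fell in v-Src cells (Ogn, Lum, Bgn and Aspn), and 4 fell (Dcn, Lum, Bgn and Aspn) and 1 rose (Ogn) in STAT3-C cells, with medians of -0.78 and -1.06. The falls are 50% in each line, against 10.4% and 10.3% of all genes, and the rise is 12.5%, against 11.9%. Ogn, osteoglycin, a collagen-binding member made in bone and vessel walls, was at 9.55, 9.12 and 8.97 in control, 7.31, 7.02 and 7.76 in v-Src and 11.39, 11.48 and 10.74 in STAT3-C cells. The 3 lines kept to separate ranges, with control in the middle. It fell in v-Src cells by 1.85 (SE 0.22, adjusted p = 0.000843) and rose in STAT3-C cells by 1.99 (SE 0.22, adjusted p = 0.000338). The direct difference was -3.84 (SE 0.24, adjusted p = 0.000296), 14.3-fold lower in v-Src cells. Its other probeset gave -1.38, 2.24 and -3.63, each past the threshold. Ogn was the only member called in opposite directions against control.

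Ogn lies on chromosome 13 beside Omd and Aspn in the row Ecm2, Aspn, Omd, Ogn, with no protein-coding gene between neighbours. Omd, osteomodulin, a keratan sulfate carrier of bone, was at 5.79, 5.72 and 6.06 in control, 5.62, 5.33 and 5.50 in v-Src and 6.56, 6.32 and 6.10 in STAT3-C cells. Its arrays kept the order of Ogn with far smaller gaps. Only the direct difference passed (-0.84, SE 0.13, adjusted p = 0.00549), since -0.37 and 0.47 against control did not. Aspn, asporin, a collagen-binding relative of decorin, fell instead in both lines, from a mean of 7.21 to 3.81 and 4.12, near background, by 3.39 and 3.09. The upstream 250 bases of Ogn, chr13:49607765-49608014 on the plus strand of GRCm38.p6, are shown because it alone moved both ways, and they hold no TTCNNNGAA.
Ogn: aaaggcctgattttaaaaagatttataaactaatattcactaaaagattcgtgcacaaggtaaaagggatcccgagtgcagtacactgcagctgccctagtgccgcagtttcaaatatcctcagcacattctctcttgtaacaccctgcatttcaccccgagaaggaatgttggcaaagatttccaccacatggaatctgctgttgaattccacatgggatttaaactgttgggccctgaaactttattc
The absence of these letters from the window says nothing about STAT3 binding elsewhere.

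Dcn, decorin, which binds collagen fibrils and TGF-beta, separated the transfected lines. Its levels were 12.77, 13.15 and 12.92 in control, 12.65, 12.36 and 12.84 in v-Src and 10.85, 10.50 and 10.77 in STAT3-C cells. The STAT3-C arrays lay below all others, and v-Src overlapped control. The log2 difference was -0.33 (95% interval -0.68 to 0.02, adjusted p = 0.148) in v-Src and -2.24 (SE 0.14, adjusted p = 1.89e-05) in STAT3-C cells, and v-Src exceeded STAT3-C cells by 1.91 (SE 0.14, adjusted p = 0.000477). Its other probeset passed in both lines, at -0.84 and -1.19, with a direct difference of 0.34 that did not pass.

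Lum, lumican, the neighbour of Dcn on chromosome 10, fell in both lines, from 8.30 ± 0.55 to 5.14 ± 0.14 in v-Src and 4.79 ± 0.12 in STAT3-C cells (SD, n = 3). Its differences were -3.17 and -3.51, and all STAT3-C arrays were near background. Bgn, biglycan, the closest relative of decorin, stayed bright but lower, with a mean of 13.34 in control, 12.24 in v-Src and 11.73 in STAT3-C cells (-1.10 and -1.61). Its direct difference of 0.51 was under the fold, but passed without STAT3-C array 1 (0.60) and after quantile normalization (0.61), and another Bgn probeset passed directly (0.85, adjusted p = 0.00566). Fmod, fibromodulin, differed by -0.46 and -0.51 and did not pass, but without control array 3 it did (-0.64 and -0.69). Another Fmod probeset was called lower in both (-0.92 and -0.88). It was near background on all arrays of the transfected lines and also on 2 of the 3 control arrays. A further Fmod probeset passed only in the direct comparison (-0.73, adjusted p = 0.00223). Prelp, the neighbour of Fmod on chromosome 1, did not pass at its representative probeset (0.32 and -0.09). The other Prelp probeset fell in STAT3-C cells by 1.74 and in v-Src cells gave -0.56 with no call.

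**Figure D2:**
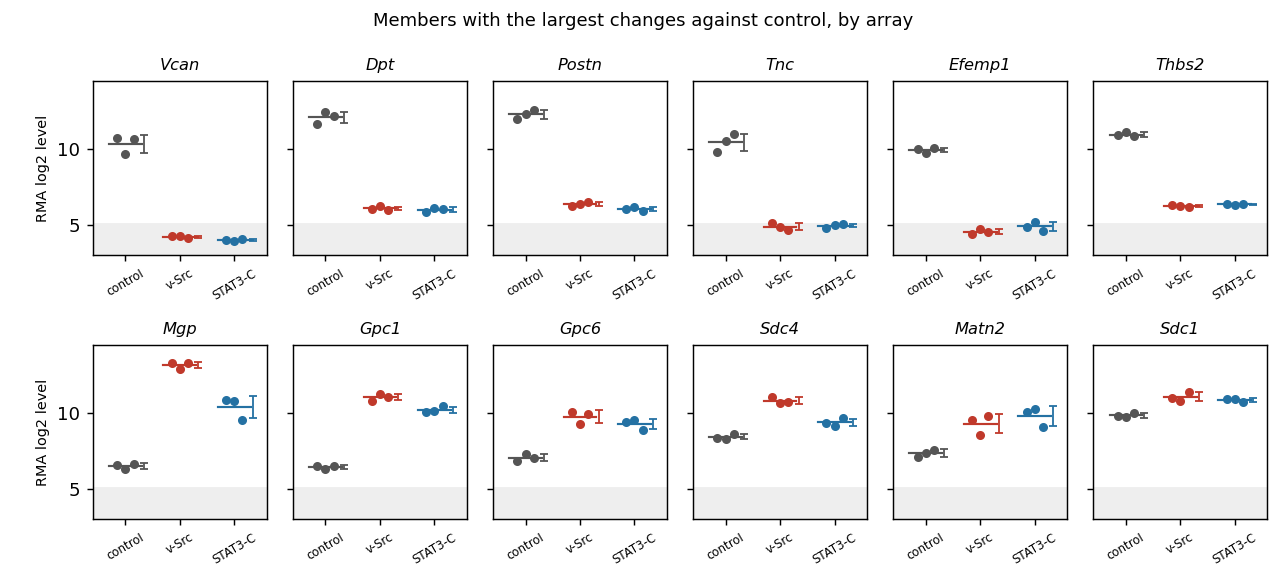
RMA log2 level on each of the 9 arrays of the 6 members that fell most and the 6 that rose most in v-Src cells against control; lines are means, bars are the SD (n = 3), and grey is the range below the lowest 25th percentile of the arrays. Vcan drops into the grey range on all 6 arrays of v-Src and STAT3-C cells and Tnc and Efemp1 on 5 of the 6, Postn, Dpt and Thbs2 stop just above it near 6, and Mgp, Gpc1 and Sdc4 differ between the transfected lines.

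Fibronectin rose in v-Src cells. Fn1, the adhesive glycoprotein that integrins assemble into fibrils, was at 12.50, 12.43 and 12.31 in control, 13.50, 13.41 and 13.73 in v-Src and 12.78, 12.86 and 12.50 in STAT3-C cells. All v-Src arrays lay above the rest, and STAT3-C array 3 overlapped control. The log2 difference was 1.13 (SE 0.11, adjusted p = 0.000332) in v-Src and 0.30 (95% interval 0.03 to 0.58, adjusted p = 0.0937) in STAT3-C cells, and v-Src exceeded STAT3-C cells by 0.83 (SE 0.13, adjusted p = 0.00473). The other probeset gave 0.95, -0.05 and 0.99. These are transcript levels, and protein at the cell surface was not measured. Vtn, vitronectin, a plasma adhesion protein made mainly in liver, differed by 0.33 and -0.15 and did not pass. The STAT motif of its promoter window has its first base at 36 after the start, and the stretch chr11:78499145-78499169 on the plus strand of GRCm38.p6 is shown to set beside that of Dpt.
Vtn: ggggctggggTTCTGGGAAtgtgac

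Of the 10 elastic fibre and microfibril genes measured, 3 fell in v-Src cells (Efemp1, Fbln5 and Mfap5) and 4 in STAT3-C cells (Fbln2 as well), with medians of -0.18 and -0.48. The falls are 30% and 40% of them, against 10.4% and 10.3% of all genes, and none rose. Efemp1, fibulin-3, a matrix protein of elastic tissues, was at 10.02, 9.76 and 10.06 in control, 4.41, 4.72 and 4.54 in v-Src and 4.87, 5.22 and 4.61 in STAT3-C cells. Of the 6 arrays of the transfected lines, 5 were near background. It fell by 5.39 (SE 0.12, adjusted p = 7.62e-07) and 5.05 (SE 0.16, adjusted p = 7.02e-07).

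Fbln5, fibulin-5, which is needed for elastic fibre assembly, had levels of 11.31, 11.10 and 11.11 in control, 8.18, 9.03 and 8.54 in v-Src and 10.34, 10.00 and 9.97 in STAT3-C cells. The 3 lines did not overlap. It fell by 2.59 (SE 0.20, adjusted p = 0.000155) and 1.07 (SE 0.12, adjusted p = 0.000445), and its direct difference was -1.52 (SE 0.21, adjusted p = 0.00333). Its other probeset, with means of 5.83, 5.80 and 5.73, passed in no comparison (-0.03, -0.10 and 0.07). Fbln2, fibulin-2, differed the other way between the transfected lines, at 11.92, 11.47 and 11.89 in control, 11.46, 11.65 and 11.54 in v-Src and 10.36, 9.98 and 10.18 in STAT3-C cells. STAT3-C alone lay apart, with -1.59 (SE 0.15, adjusted p = 0.000163) against control and a v-Src excess of 1.38 (SE 0.11, adjusted p = 0.000602), while v-Src overlapped control (-0.21).

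Fbln1, fibulin-1, depends on the probeset. The one with the highest mean fell short of the fold in both lines (-0.41 and -0.39). The others gave -3.12 and -2.87 in v-Src and -2.92 and -2.59 in STAT3-C cells and passed. In control the first was the dimmest, with a mean of 8.10 against 9.30 and 8.49. It stood for the gene because the others fell further, so the choice by mean over all arrays can favor a probeset that fell less. The mean of the Fbln1 probesets passed at -2.13 and -1.97. Mfap5, a microfibril glycoprotein, fell by 1.87 and 1.72. Emilin1, an elastic fibre glycoprotein that restrains TGF-beta, showed a v-Src excess over STAT3-C of 0.75 (SE 0.21, adjusted p = 0.0408). That call was lost without v-Src array 1 (0.57, adjusted p = 0.115) or 6 (0.74, 0.112) or without STAT3-C array 1 (0.80, 0.1), 2 (0.85, 0.0608) or 3 (0.59, 0.104). Against control Emilin1 in STAT3-C cells had -0.57, under the fold, and passed without control array 2 (-0.61) or STAT3-C array 1 (-0.62) or 2 (-0.67). The other Emilin1 probeset passed in STAT3-C cells (-0.79, adjusted p = 0.00202) and in the direct comparison (0.96, adjusted p = 0.00539), and the mean of both passed against control at -0.68. At their representative probesets Eln, Fbn2, Mfap2 and Mfap4 stayed within 0.15 of control in both lines and did not pass. The other Mfap2 probeset gave -0.48 and -0.28 and the other Eln probeset 0.10 and 0.34, all under the fold. Fbn2 was near background on all v-Src arrays.

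Of 14 measured cross-linking and assembly partners of elastic fibres, 4 fell and 1 rose in v-Src cells, and 3 fell and 1 rose in STAT3-C cells. The falls are 28.6% and 21.4%, against 10.4% and 10.3% of all genes. The rise is 7.14% in each line, under the 9.54% and 11.9% of all genes. The lysyl oxidase relatives Loxl3 (-2.20 and -2.50) and Loxl1 (-1.55 and -1.35) fell in both. Atp7a, the copper pump that supplies lysyl oxidases, rose by 2.49 and 2.46. Ltbp2, a microfibril-binding protein, fell in v-Src cells by 1.58 and gave -0.43 (adjusted p = 0.438) in STAT3-C cells. Emilin2, a relative of Emilin1, fell in STAT3-C cells by 1.03. Its v-Src excess of 0.60 passed, but not without v-Src array 1 (0.59) or 6 (0.49) or STAT3-C array 2 (0.62) or 3 (0.46).

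**Figure D3:**
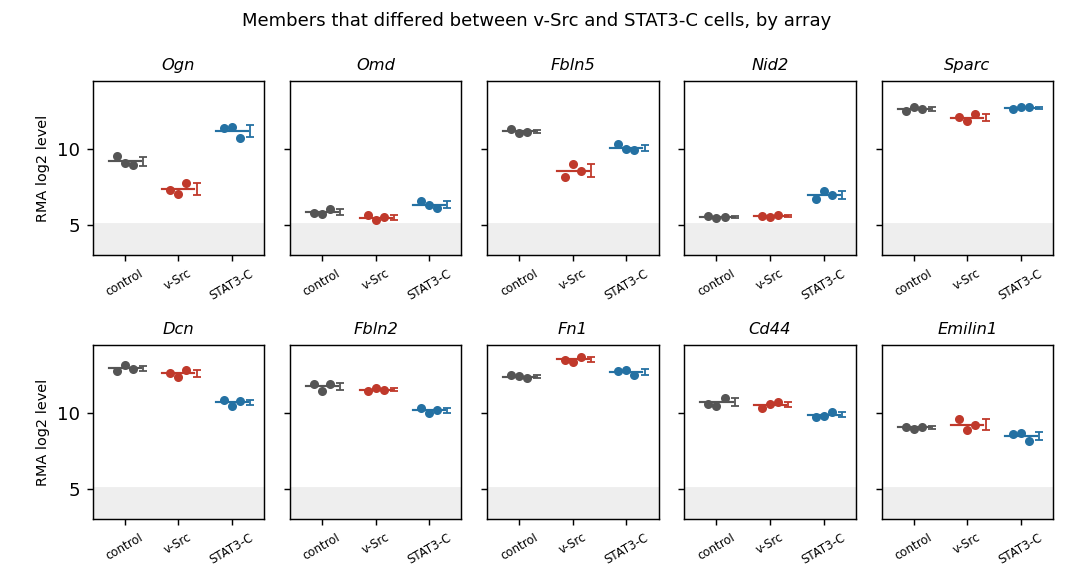
RMA log2 level on each array of 10 members that differed between v-Src and STAT3-C cells; lines are means, bars are the SD (n = 3), and grey is the range below the lowest 25th percentile of the arrays. Top row, Ogn, Omd, Fbln5, Nid2 and Sparc are lower in v-Src cells; bottom row, Dcn, Fbln2, Fn1, Cd44 and Emilin1 are higher there, and the Emilin1 v-Src arrays spread from 8.86 to 9.59.

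Of 4 basement membrane genes, Nid1 fell in both lines, and Agrn fell and Nid2 rose in STAT3-C cells. Nid1, nidogen-1, which links laminin to type IV collagen, went from a mean of 11.55 to 9.85 in v-Src and 10.22 in STAT3-C cells (-1.70 and -1.33). Nid2, nidogen-2, a linker of the same kind, was at 5.58, 5.44 and 5.54 in control, 5.62, 5.55 and 5.63 in v-Src and 6.71, 7.23 and 7.0 in STAT3-C cells. All STAT3-C arrays lay above the rest, while control and v-Src overlapped just above background. It rose in STAT3-C cells by 1.46 (SE 0.14, adjusted p = 0.000149), gave 0.08 (95% interval -0.09 to 0.25) in v-Src cells and differed directly by -1.38 (SE 0.13, adjusted p = 0.000857).

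Agrn, agrin, which clusters acetylcholine receptors at the synapse and also lies in basement membranes, fell in STAT3-C cells by 0.97 (adjusted p = 0.00156). It did not pass there as the mean of its probesets (-0.43). Its value of -0.55 in v-Src cells was under the fold, and passed without v-Src array 6 (-0.72). Hspg2, perlecan, the main heparan sulfate proteoglycan of basement membranes, did not pass at its representative probeset (-0.18 and 0.10), while the other fell by 1.09 and 0.85. The mean of both passed in v-Src cells, at -0.64.

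Of the 8 surface heparan sulfate proteoglycans, 5 rose and 1 fell in each transfected line, with medians of 1.12 and 0.99. The rises are 62.5% in each line, against 9.54% and 11.9% of all genes. The fall is 12.5%, near the 10.4% and 10.3% of all genes. Gpc1, glypican-1, a lipid-anchored coreceptor for fibroblast growth factors, was at 6.52, 6.30 and 6.51 in control, 10.83, 11.24 and 11.07 in v-Src and 10.10, 10.14 and 10.44 in STAT3-C cells. No lines overlapped, and the gain was 4.60 (SE 0.12, adjusted p = 1.78e-06), 24.3-fold, and 3.78 (SE 0.12, adjusted p = 7.48e-07), 13.8-fold. The direct difference of 0.82 (SE 0.14, adjusted p = 0.0064) passed.

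Gpc6, glypican-6, of the same family, was at 6.84, 7.28 and 7.06 in control, 10.05, 9.27 and 9.97 in v-Src and 9.41, 9.55 and 8.89 in STAT3-C cells. Both transfected lines lay above control and overlapped each other, with gains of 2.70 (SE 0.22, adjusted p = 0.000179) and 2.23 (SE 0.19, adjusted p = 8.56e-05). Of its 5 probesets, 4 rose in v-Src and 3 in STAT3-C cells. Gpc4, glypican-4, went the other way, from a mean of 10.76 to 8.93 and 8.98 (-1.82 and -1.77), with its other probeset at -1.85 and -1.86. Gpc3, its neighbour on the X chromosome, differed by -0.15 and -0.19 and did not pass.

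The syndecans, transmembrane carriers of heparan sulfate, rose in 3 of 4 cases. Sdc1 was at 9.81, 9.71 and 10.04 in control, 11.01, 10.82 and 11.42 in v-Src and 10.96, 10.95 and 10.74 in STAT3-C cells. Control lay below both other lines, which overlapped each other. It rose by 1.23 (SE 0.17, adjusted p = 0.00158) and 1.03 (SE 0.12, adjusted p = 0.00039), and its 4 probesets all rose in both lines. Only 1 of them passed in the direct comparison (-0.97).

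Sdc4, a syndecan of focal adhesions, was at 8.36, 8.32 and 8.64 in control, 11.06, 10.65 and 10.76 in v-Src and 9.35, 9.16 and 9.65 in STAT3-C cells. The lines kept apart, with STAT3-C between control and v-Src. It rose by 2.38 (SE 0.13, adjusted p = 4.01e-05) and 0.95 (SE 0.15, adjusted p = 0.00189), with a direct difference of 1.43 (SE 0.15, adjusted p = 0.0013). Its other probeset gave 0.23 and 0.24 and did not pass. Sdc3 rose by 1.02 and 1.17, again with a probeset that did not pass (-0.40 and -0.25). Sdc2 did not pass at its representative probeset (-0.30 and -0.11), and 1 of its 3 others rose in STAT3-C cells by 0.87.

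**Figure D4:**
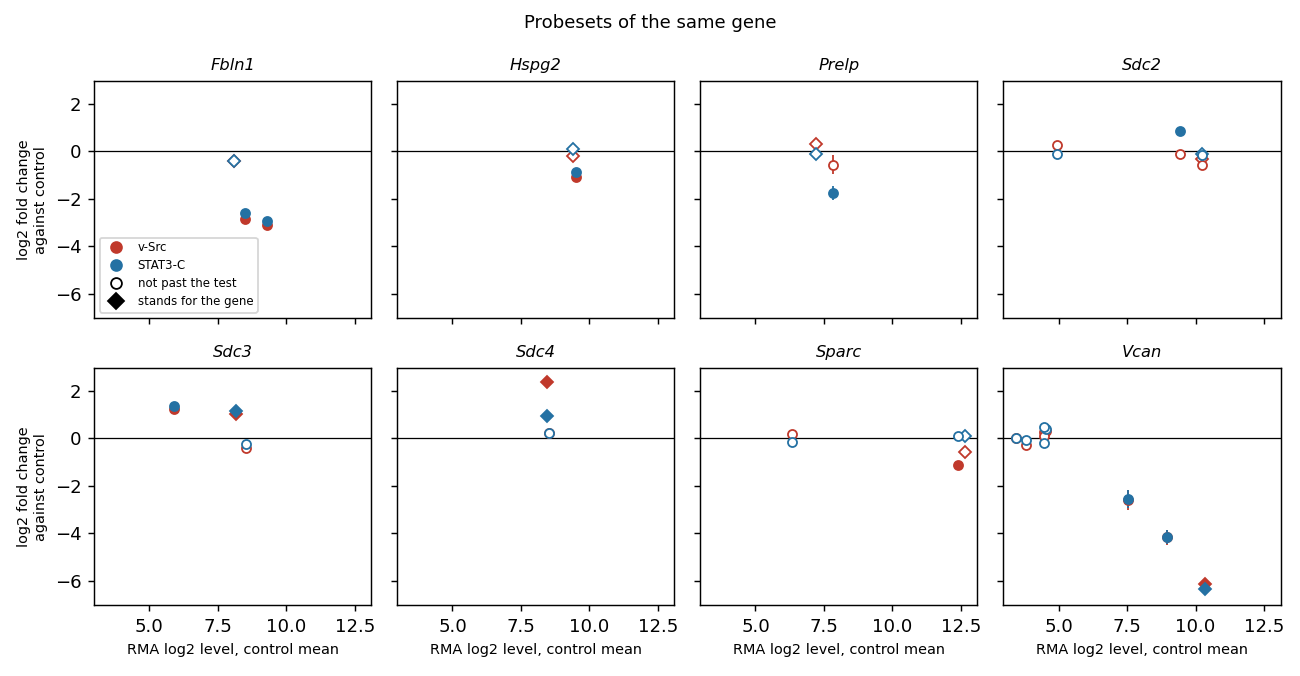
Log2 fold change against control of every probeset of 8 members, against its mean RMA log2 level in control; red is v-Src, blue is STAT3-C, bars are the limma standard error, diamonds stand for the gene and open symbols did not pass. Each of Fbln1, Hspg2, Prelp, Sdc3 and Sdc4 has probesets that passed and probesets that did not, and 3 of the 8 Vcan probesets passed.

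Probesets of a gene read different stretches of its transcripts, so such gaps bear on every single-probeset value. Of the 33 members with 2 or more probesets, 21 had probesets that differed in call in at least 1 comparison, and none had probesets called in opposite directions. The plot of all probesets of 8 members shows these cases.

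Of 40 measured enzymes that build and sulfate the sugar chains of proteoglycans, 8 rose in each transfected line, or 20%, against 9.54% and 11.9% of all genes. The list was chosen with earlier results of these data known. In each line 4 fell, or 10%, near the 10.4% and 10.3% of all genes, and the medians were 0.16 in v-Src and -0.01 in STAT3-C cells. Hs6st2, a heparan sulfate 6-O-sulfotransferase, rose by 2.67 in v-Src and 4.18 in STAT3-C cells, a direct difference of -1.50. Its relative Hs6st1 gave 0.47 in v-Src cells, under the fold, and fell in STAT3-C cells by 1.01, with a v-Src excess of 1.48. Without v-Src array 5 the first value became 0.59 and passed. Sulf1, which removes 6-O-sulfates outside the cell, rose by 3.35 and 2.10, and Papss2, which makes the sulfate donor, by 2.44 and 1.90. Chst15, a chondroitin sulfate sulfotransferase, fell by 1.67 and 1.89. Dse, dermatan sulfate epimerase, fell in v-Src cells by 0.80, gave 0.34 in STAT3-C cells and was lower in v-Src cells by 1.14 in the direct comparison.

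Of 40 other matrix glycoprotein and proteoglycan genes, 6 rose and 7 fell in v-Src cells, and 7 rose and 10 fell in STAT3-C cells, with medians of -0.01 and -0.08. In v-Src cells these are 15% and 17.5%, against 9.54% and 10.4% of all genes. In STAT3-C cells they are 17.5% and 25%, against 11.9% and 10.3%. The count higher in v-Src cells was 3 without control array 3, without v-Src array 1 and at a fold of 2. At that fold 4 rose and 6 fell in STAT3-C cells. Igfbp7, a secreted binding protein of vessels and stroma, fell by 6.37 and 6.23, and Smoc2, a relative of Sparc, by 3.67 and 3.81. Tnn, tenascin-N, gave -2.50 and -2.64, and Ccn5, a growth-restraining member of the CCN family, -2.55 and -1.64, all passing. Ecm1, extracellular matrix protein 1, rose by 3.52 and 2.59. Spon2, spondin-2, rose in STAT3-C cells by 2.67 against 0.06 in v-Src cells, a direct difference of -2.61, while Cspg4, the NG2 proteoglycan, rose in v-Src cells by 2.05 against 0.43, a direct difference of 1.62.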

How the data were processed

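The authors made the log2 values with Robust Multichip Average (RMA) before they deposited them, and the table has a column per array. Per the methods, controls were normalized separately with either transfected line, and which run gave the deposited columns is not stated. If there were separate runs, run and line cannot be told apart in the direct comparison. After 64 control probesets were left out, 45037 were tested in R 4.3.3 with limma 3.58.1 (lmFit, eBayes) on the 6 arrays of each comparison, with Benjamini-Hochberg adjustment over all of them. Of these, 34945 carried 1 gene symbol, 932 several and 9160 none. Arrays give no read depth, and precision is limited by 3 arrays a line.

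The arrays were grouped by their titles. Values of each array are given for the 6 members that rose and the 6 that fell most in each comparison and for those with opposite calls, and for Cd44 and Has2, chosen after their values were seen. Of a pathway list, up to 4 genes with the largest called change in each comparison could be named. The members and lists were chosen with earlier results of these data known. The script was tested on simulated data. Alternatives were SAM over 20 groupings (q under 5%), other scalings, filters, thresholds and probeset rules, all 9 arrays in 1 fit, a replicate block and each array left out. Promoters came from RefSeq (GRCm38.p6), and figures from matplotlib 3.10.9.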

Additional observations from a re-analysis of the deposited data

Results flagged for a closer look

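Ogn was picked out because it was called in opposite directions in the transfected lines against the same control arrays and also passed in the direct comparison. The direct values below are therefore part of how it was picked and not separate support. The direct log2 difference, v-Src minus STAT3-C, was -3.84 (limma adjusted p = 0.000296), and the 3 arrays of either line did not overlap those of the other.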

How the results depend on the processing

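The 8 higher and 15 lower members in v-Src cells, and the 9 and 19 in STAT3-C cells, stayed within 1.5 times these counts under every alternative run, SAM included. In the direct comparison the 9 higher members became 4 at a fold of at least 2, and the 5 lower became 3 there and 3 when only probesets above the median level were tested. Leaving out 1 array gave 8 higher and 15 to 17 lower members in v-Src cells, 9 and 19 to 21 in STAT3-C cells, and 7 to 9 and 4 to 5 in the direct comparison. With the replicate number as a replicate block, the STAT3-C counts were 9 and 19, and same-numbered arrays did not deviate together (Pearson r -0.09, 0.06 and 0.04). v-Src shares only number 1 with the other lines, so it had no such fit. No value of a member changed sign while called. Of the member values under alternatives, 16 of 807 in v-Src cells gained a call and none lost it, 15 of 855 in STAT3-C cells gained and 6 lost it, and 7 of 800 in the direct comparison gained and 25 lost it. Among the genes of other lists only Epcam turned, from 0.66 in v-Src against STAT3-C cells to -0.39 without probesets ending in _s_at or _x_at, which replaces its probeset. Without those probesets, Acta2 gave -0.22 in v-Src and -0.02 in STAT3-C cells. Levels near background limit what can be said of Vcan, Tnc, Efemp1, Aspn and Lum in the transfected lines, whose differences may understate the change.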
